A study of Rattus norvegicus with 862 samples.

Results

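The 6 genes described here encode the core proteins that move calcium in the heart muscle cell, namely Atp2a2, Ryr2, Pln, Casq2, Slc8a1 and Cacna1c. They were taken as a list of gene symbols and each was read from its brightest single-symbol probe set on the Affymetrix RG230 2.0 array, out of 14217 genes measured in all. Hearts came from 840 male Sprague-Dawley rats, 6 to 8 weeks old on arrival, of which 611 had received 1 of 88 compounds and 217 had received the vehicle alone at dose 0. A further 12 vehicle rats whose title and other labels named different vehicles or routes were put in no group. Compounds were given in saline, water, corn oil, CMC (carboxymethyl cellulose) or another suspension, by gavage, into a vein, the peritoneum or under the skin, or from a mini-pump under the skin, mostly for 1, 3 or 5 d. The unit of comparison was the profile, that is 1 compound at 1 dose in 1 vehicle by 1 route over all its durations, against dose-0 rats of the same vehicle, route, duration and RNA extraction campaign (matched controls). Such controls existed for 95 of 97 profiles. Adjusted p values are two-sided and from limma with Benjamini-Hochberg adjustment over all 14217 genes of a profile. A gene was called at an adjusted p of 0.01 or less and a change of at least 1.5-fold, and was said to have passed where the adjusted p alone was met.

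Each heartbeat starts when L-type calcium channels in the surface membrane, whose pore is encoded by Cacna1c, let in calcium that opens ryanodine receptors (Ryr2) on the sarcoplasmic reticulum, the internal calcium store. Calsequestrin (Casq2) holds calcium inside that store beside the receptor. The muscle relaxes as the pump SERCA2 (Atp2a2) takes calcium back up, held in check by phospholamban (Pln), and as the sodium-calcium exchanger (Slc8a1) carries the rest out of the cell. Because whole hearts were extracted, fewer muscle cells and less RNA per muscle cell cannot be told apart in any of these values.

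All 6 transcripts were abundant. On the log2 scale of the deposited values, whose highest value on any array was 14.82, the mean level over all arrays was 14.10 for Atp2a2, 13.78 for Pln, 12.87 for Ryr2, 12.27 for Casq2, 11.04 for Slc8a1 and 9.28 for Cacna1c. Probe sets differ in brightness, so these levels do not rank the genes against each other. In the 217 control rats the spread was narrow. The SD was 0.10 for Atp2a2, 0.13 for Pln, 0.17 for Ryr2, 0.16 for Casq2, 0.20 for Slc8a1 and 0.22 for Cacna1c. The median of 22 heart muscle marker genes lay between 12.00 and 13.76 in control rats and between 11.44 and 13.86 in treated rats, so heart muscle markers were high on every array. A minority of hearts carried other tissue or stood apart. Among the 840 rats, 14 had a liver marker median over 8, 13 an adipocyte marker median over 7 and 5 an array correlation under 0.95 with the mean of all arrays, together 32 rats. These hearts held 4 of the 10 lowest Atp2a2 values and the lowest value of every member except Ryr2. Without them the lowest Atp2a2 level was 13.45 in place of 12.40, and the SD over rats was 0.07 in place of 0.12.

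Across the 95 profiles the 6 genes were called 4 times in 570 tests, with Ryr2 lower after epirubicin and doxorubicin and Cacna1c higher after dexamethasone and fluocinolone acetonide. Over all genes and profiles 0.702% of tests were called, so the 6 genes were not called more often than genes at large. By adjusted p alone 26 of the 570 tests passed, 11 higher and 15 lower, against 1.93% of tests over all genes. Casq2 passed in 8 profiles, Ryr2 in 6, Cacna1c in 6, Slc8a1 in 5, Pln in 1 and Atp2a2 in none. On its brightest probe set Atp2a2 did not reach an unadjusted p under 0.05 in any profile. The SD of its 95 changes was 0.06, lower than in all but 1.63% of genes, and that of Pln was 0.08, whereas the median gene had 0.13. Cacna1c varied most among the 6 with an SD of 0.22, followed by Ryr2 with 0.18, Slc8a1 with 0.16 and Casq2 with 0.14.

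**Figure D1:**
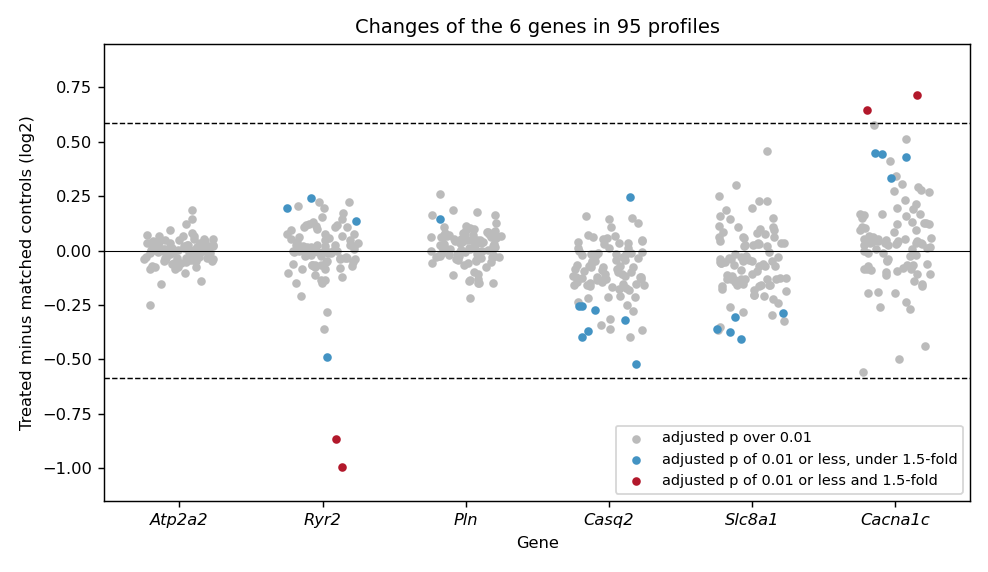
Change of each gene (treated minus matched controls, log2) in each of 95 profiles, 1 point per profile, with dashed lines at 1.5-fold. The 95 changes of Atp2a2 lie between -0.25 and 0.19, while those of Ryr2 reach -0.996 and those of Cacna1c reach 0.72.

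The largest change of any member in the 95 profiles was a fall of Ryr2, the release channel. Epirubicin and doxorubicin are anthracyclines, anticancer drugs known for heart toxicity, and both were given into a vein in saline, at 2.7 and 3 mg/kg, to 3 rats at each of 1, 3 and 5 d. Their 22 matched controls were the same rats. Because Ryr2 and Cacna1c were the 2 genes called, the 250 bases before the RefSeq start site of each are shown (build GRCr8, 5′ to 3′ on the strand of the gene). That of Ryr2 lies on the plus strand at chr17:63081277-63081526, just before the gene at chr17:63081527-63667141. Capitals mark the GC box GGGCGG or its reverse complement CCGCCC, the letters read by factors of the Sp family.
Ryr2: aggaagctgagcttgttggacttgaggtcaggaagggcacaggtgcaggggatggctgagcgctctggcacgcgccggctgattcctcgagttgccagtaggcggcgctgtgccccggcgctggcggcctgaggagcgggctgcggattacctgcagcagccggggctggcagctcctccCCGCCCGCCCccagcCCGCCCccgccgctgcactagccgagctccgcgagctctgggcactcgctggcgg
The window held 3 such matches, of which the first 2 overlapped, against 30.5% of all promoters with 1 or more, and its bases were 72% G or C, against a median of 51.2%. It held neither TATAAA, present on either strand in 12.9% of promoters, nor TGTTCT, described with Cacna1c, and it held 1 E-box (CANNTG), as did 65.5% with 1 or more. A match of letters is a description of the window and not evidence of binding.

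In control rats dosed with intravenous saline the Ryr2 level was 12.16, 12.80, 12.89, 12.93, 12.94 and 13.02 at 1 d. It ran from 12.75 to 12.99 in 8 rats at 3 d, and from 12.55 to 13.04 in 8 rats at 5 d. After epirubicin it was 12.61, 12.64 and 12.70 at 1 d, 11.72, 11.93 and 12.00 at 3 d, and 10.84, 11.15 and 11.19 at 5 d. At 1 d the epirubicin rats lay within the range of the controls, which 1 low control at 12.16 widened, and at 3 and 5 d no epirubicin rat overlapped a control. After doxorubicin it was 12.51, 12.54 and 12.77 at 1 d, 11.92, 11.94 and 11.97 at 3 d, and 11.36, 11.39 and 11.51 at 5 d, with the same pattern of overlap. Treated minus control means after epirubicin were -0.14 at 1 d, -0.96 at 3 d and -1.81 at 5 d, and after doxorubicin -0.19, -0.90 and -1.45. Over all durations the change was -0.996 (SE 0.14, 95% interval -1.28 to -0.71, adjusted p = 3.36e-06) after epirubicin, where 2.7% of all genes were called. It was -0.87 (SE 0.11, 95% interval -1.10 to -0.63, adjusted p = 3.18e-06) after doxorubicin, where 1.43% were called. The change differed between durations (limma F test of treatment by duration, adjusted p = 1.41e-06 for epirubicin and 0.000664 for doxorubicin). Such a difference was found in 0.117% of tests over the 77 profiles with enough rats. The 3 epirubicin rats at 5 d had the lowest mean Ryr2 level of all 208 treated conditions, 11.06 ± 0.19 (SD, n = 3), and the doxorubicin rats at 5 d the next, 11.42 ± 0.08 (SD, n = 3), a gap larger than either SD.

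**Figure D2:**
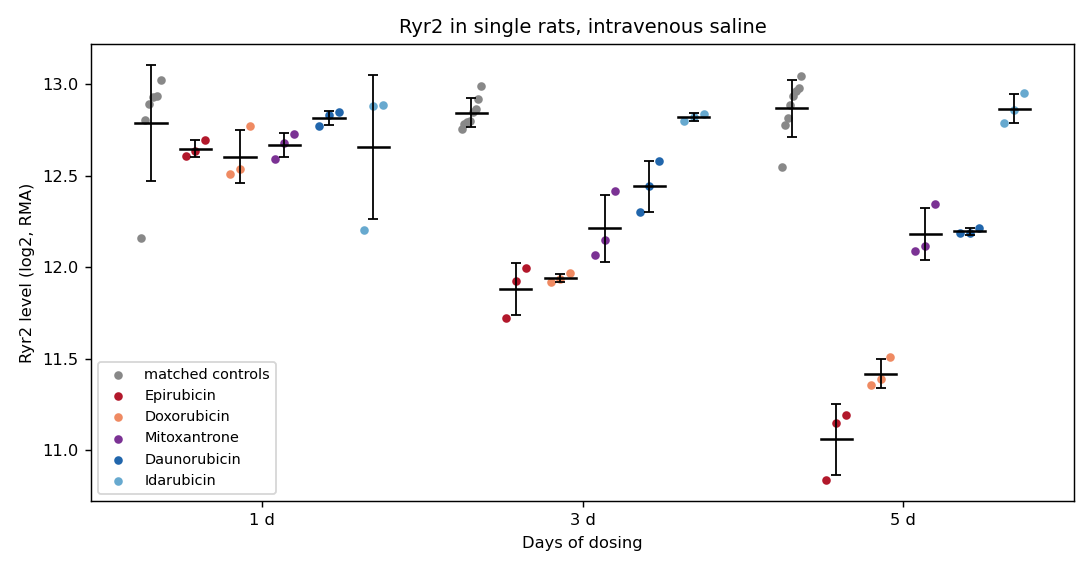
Ryr2 level (log2) in single rats by days of dosing after intravenous saline (grey) or 1 of 5 compounds, with the mean as a bar and 1 SD as whiskers. At 5 d the epirubicin rats sit between 10.84 and 11.19 and the controls between 12.55 and 13.04, while idarubicin rats lie among the controls.

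The second Ryr2 probe set fell likewise, by 1.16 after epirubicin (adjusted p = 1.34e-06) and by 0.98 after doxorubicin (adjusted p = 7.32e-06), on the log2 scale. Within single hybridisation batches that held both kinds of rat, the difference was below 0 in 4 of 4 batches for epirubicin (-1.72 to -0.34) and in 5 of 5 for doxorubicin (-1.63 to -0.31). Controls of the treated rats' own study gave -0.90 for doxorubicin (9 against 6 rats, adjusted p = 0.00163), but for epirubicin the study held 1 control at 1 d, 1 at 3 d and none at 5 d. The fit on 6 treated rats of 1 and 3 d and these 2 controls gave -0.25 (SE 0.26, adjusted p = 0.754). The plain difference of all 9 epirubicin rats from the 2 controls, with durations not matched, was -0.65.

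3 related compounds were given into a vein in saline at other doses and compared with the same 22 controls, so their values stand side by side without a test between compounds. Mitoxantrone, an anthracenedione, gave a Ryr2 change of -0.49 at 2 mg/kg (SE 0.08, adjusted p = 0.000209), which passed but missed 1.5-fold, where 3.33% of all genes passed. Its rats stood at 12.59, 12.68 and 12.73 at 1 d, 12.07, 12.15 and 12.42 at 3 d, and 12.09, 12.12 and 12.35 at 5 d, below every control at 3 and 5 d. Daunorubicin at 3.25 mg/kg gave -0.36 (SE 0.08, adjusted p = 0.0150). Its rats ran from 12.77 to 12.85 at 1 d, from 12.30 to 12.58 at 3 d and from 12.19 to 12.22 at 5 d, again below every control at the later times. Idarubicin at 0.625 mg/kg gave -0.05 (SE 0.08, adjusted p = 1.00), with 1 rat at 12.20 at 1 d and the other 8 between 12.79 and 12.95. For daunorubicin and mitoxantrone the F test by duration gave adjusted p values of 0.217 and 0.446.

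Other members moved less in the anthracycline hearts. After epirubicin 11.8% of all genes passed, among them Casq2 at -0.40 (SE 0.06, adjusted p = 2.86e-05), Slc8a1 at -0.41 (SE 0.06, adjusted p = 2.72e-06) and Pln at 0.15 (SE 0.04, adjusted p = 0.00533). After doxorubicin 7.13% passed, and of the members besides Ryr2 only Casq2 did, at -0.27 (SE 0.06, adjusted p = 0.00175). In the wider list of 20 release and store genes, Ryr2 and Asph were called in both profiles, and no other gene was called in either. Asph encodes, through its splice forms, junctin of the release complex as well as an aspartyl hydroxylase. Its level ran from 9.73 to 10.77 (median 10.27) after epirubicin and from 9.65 to 10.72 (median 10.18) after doxorubicin, against 10.50 to 11.40 (median 11.05) in the 22 controls, with changes of -0.67 and -0.83 (adjusted p = 9.60e-06 and 2.26e-06). Epirubicin also lowered Fxyd1, which encodes phospholemman, a regulator of the sodium pump, to between 11.31 and 11.71 from 11.99 to 12.22 (-0.64, adjusted p = 5.96e-14), with no overlap. It raised Akap7, a kinase anchoring protein that binds phospholamban, by 0.65 (adjusted p = 1.85e-07).

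Markers of blood cells shifted in the same hearts. Of 5 red blood cell genes, 4 were called lower after epirubicin and 4 after doxorubicin, and the list median ran from 5.04 to 7.25 and from 5.05 to 7.75 against 7.03 to 8.78 in controls. The median change of 22 heart muscle markers was -0.01 and -0.04, with none called. After epirubicin 1 of 15 fibroblast and matrix genes was called lower and 2 of 10 macrophage genes higher. After doxorubicin 1 of 6 atrial genes was called higher, with a median change of 0.89 over that list, and no fibroblast or macrophage gene was called. Array correlation with the mean of all arrays shifted by -0.00335 and -0.00292, and the Gapdh 3′ minus 5′ difference, a sign of RNA integrity, by 0.00883 and -0.0197. With the mean of the atrial light chains Myl4 and Myl7 as a covariate the Ryr2 changes were -0.99 and -0.88. That covariate covers atrial genes alone, and the part of these shifts in the Ryr2 result was not tested.

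Casq2 was below its matched controls in 75 of 95 profiles, with a median change of -0.09, against -0.00337 over all genes and profiles. It reached an unadjusted p under 0.05 in 37 profiles, and the other members did so in 0 to 24. No share over all genes is given for these counts. Profiles share control rats and are therefore not independent. Casq2 passed lower in 7 profiles and was called in none. The largest change was after sulindac, an anti-inflammatory drug, at 132 mg/kg, where 11.9% of all genes passed. The 5 sulindac rats stood at 11.75, 12.05 and 12.06 at 3 d and at 11.51 and 11.78 at 5 d, below all 19 controls, which ran from 12.10 to 12.51 (median 12.31). The change was -0.52 (SE 0.07, adjusted p = 1.05e-05). In those hearts all 10 macrophage markers were called higher, and the heart muscle markers had a median change of -0.12. The share of all genes called after sulindac is not given. After tacrolimus, a calcineurin inhibitor, at 134 mg/kg, Casq2 ran from 12.02 to 12.14 in 6 rats against 12.15 to 12.54 in 18, again without overlap (-0.32, SE 0.05, adjusted p = 3.67e-05), where 9.2% of all genes passed. Terfenadine at 750 mg/kg gave -0.37 (SE 0.07), with 6.46% of genes passing. Valdecoxib at 404 mg/kg and chlorobenzene at 500 mg/kg each gave -0.25 (SE 0.05), with 2.4% and 12.6% passing. Dexamethasone alone passed in the other direction, at 0.25 (SE 0.06, adjusted p = 0.00371). The second Casq2 probe set gave -0.46 after sulindac, -0.31 after tacrolimus and -0.45 after terfenadine (adjusted p = 5.63e-05, 0.000134 and 9.97e-05).

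In the whole release and store list, Ryr2 included, 22 of 1900 tests were called, or 1.16%, of which 19 were lower and 3 higher. Over all genes 0.702% of tests were called, 4651 lower and 4828 higher. The calls in the list fell on 6 of the 20 genes. Casq1, the calsequestrin best known from skeletal muscle, was called lower in 9 profiles, with changes between -1.19 (phenytoin) and -0.72 (chlorobenzene). Tacrolimus (-1.12), terfenadine (-1.10), valdecoxib (-0.84) and chlorobenzene were among them, 4 of the profiles in which Casq2 passed lower. Asph was called lower in 5 profiles, between -0.83 and -0.60. Jph2, which ties the surface membrane to the store, was called lower after dexamethasone and vinblastine (-0.63 each). Hrc, a calcium-binding protein of the store, was called lower once, after isoprenaline at 2 mg/kg (-0.86).

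On the side of calcium entry, Cacna1c rose after dexamethasone and fluocinolone acetonide, 2 synthetic steroids that act through the glucocorticoid receptor. The 250 bases before its RefSeq start site, on the minus strand at chr4:154051749-154051998 (GRCr8), are shown to set beside those of Ryr2. Capitals would mark the GC box and the glucocorticoid receptor half-site TGTTCT or its reverse complement AGAACA, and there are none.
Cacna1c: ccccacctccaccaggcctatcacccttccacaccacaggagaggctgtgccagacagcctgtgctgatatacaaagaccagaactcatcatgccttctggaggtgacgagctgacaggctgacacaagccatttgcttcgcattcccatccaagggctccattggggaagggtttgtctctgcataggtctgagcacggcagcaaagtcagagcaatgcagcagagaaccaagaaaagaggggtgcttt
The RefSeq gene spans chr4:153431169-154051932, so 184 of the 250 bases lie inside it, since the start site used for the window is not the outermost end of the gene. The half-site letters occurred in 17.5% of all such windows. Their absence says only that they do not stand in these 250 bases. The window was 54.4% G or C and held 1 E-box and no TATAAA.

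Dexamethasone at 1 mg/kg was given by gavage in corn oil. The Cacna1c level was 9.79, 10.02 and 10.22 in 3 rats at 3 d, against 9.10 to 9.58 in 8 controls, and 9.99, 10.04 and 10.05 at 5 d, against 8.96 to 9.45 in 11 controls. Every dexamethasone rat lay above every control. The change was 0.72 (SE 0.07, 95% interval 0.56 to 0.87, adjusted p = 3.09e-08), and 6.27% of all genes were called. Fluocinolone acetonide at 2.5 mg/kg was injected under the skin in corn oil. The level was 9.62, 9.70 and 9.76 at 1 d, 9.77, 9.95 and 10.05 at 3 d, and 9.67, 9.85 and 9.95 at 5 d. The 3 controls at each time stood at 9.22, 9.25 and 9.36, at 9.05, 9.11 and 9.21, and at 8.85, 9.14 and 9.30, so that the groups were separate at all 3 times. The change was 0.65 (SE 0.08, 95% interval 0.49 to 0.81, adjusted p = 5.33e-06), where 5.73% of genes were called. The 2 dexamethasone conditions had the highest mean Cacna1c levels of all 208, 10.02 ± 0.03 at 5 d and 10.01 ± 0.22 at 3 d (SD, n = 3 each), which did not differ beyond their spread.

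**Figure D3:**
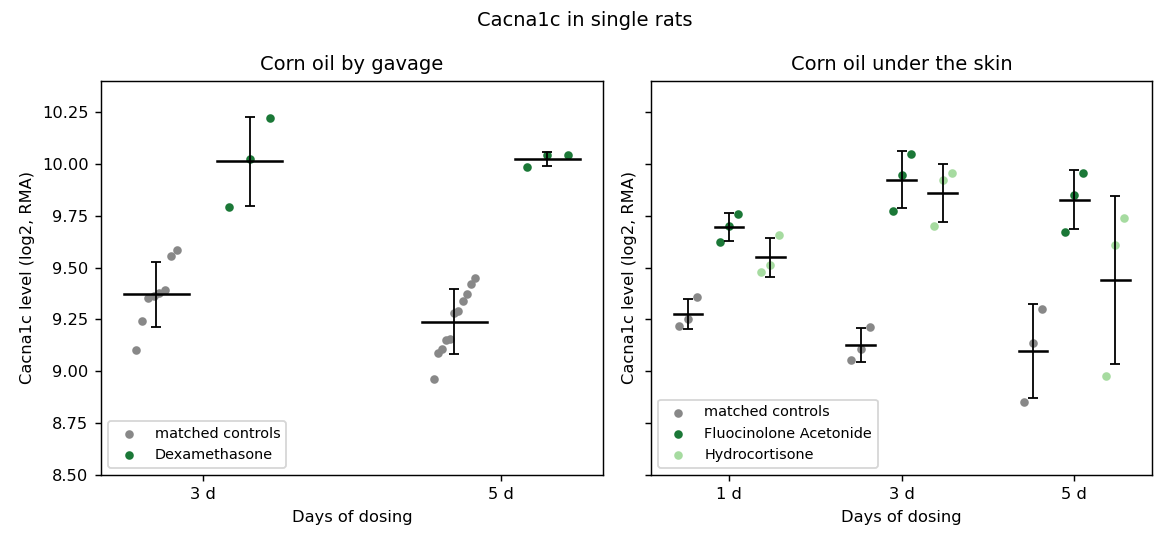
Cacna1c level (log2) in single rats by days of dosing, for corn oil by gavage with dexamethasone (left) and corn oil under the skin with fluocinolone acetonide or hydrocortisone (right), with the mean as a bar and 1 SD as whiskers. All dexamethasone and fluocinolone acetonide rats lie at or above 9.62, above the highest control at 9.58.

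The second Cacna1c probe set gave 0.70 after dexamethasone (adjusted p = 0.000101) and 0.33 after fluocinolone acetonide (SE 0.12, adjusted p = 0.0777), so the second call rests on 1 probe set. Within hybridisation batches the difference was above 0 in 4 of 4 for dexamethasone (0.45 to 0.81) and in 3 of 3 for fluocinolone acetonide (0.64 to 0.75). Neither profile could be compared with controls of its own study. Other steroids were given at other doses and partly in other vehicles and for other durations, so their Cacna1c changes stand side by side only. Prednisolone, cortisone and prednisone were profiled at 1 d alone, in 3 rats each. At 1 d the treated minus control mean after fluocinolone acetonide was 0.42, against 0.80 at 3 d and 0.73 at 5 d. Hydrocortisone at 56 mg/kg, compared with the same 9 controls as fluocinolone acetonide, gave 0.45 (SE 0.10, adjusted p = 0.00539), where 6.53% of genes passed. Its rats stood at 9.48, 9.51 and 9.66 at 1 d, 9.70, 9.92 and 9.96 at 3 d, and 8.98, 9.61 and 9.74 at 5 d, overlapping the controls only through 1 rat at 5 d. Prednisolone at 184 mg/kg gave 0.17 (SE 0.09, adjusted p = 0.408), fludrocortisone acetate at 125 mg/kg 0.13 (SE 0.07, adjusted p = 0.243) and cortisone at 206 mg/kg 0.02 (SE 0.09, adjusted p = 0.993). Prednisone at 68 mg/kg gave -0.19 (SE 0.09, adjusted p = 0.378), and the mineralocorticoid aldosterone at 0.065 mg/kg -0.04 (SE 0.10, adjusted p = 0.940).

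Cacna1c also passed after cyclosporin A at 350 mg/kg (0.44, SE 0.07, adjusted p = 0.000120, with 5.99% of genes passing), sulindac (0.43, SE 0.09, adjusted p = 0.00171) and acrolein at 20 mg/kg (0.34, SE 0.07, adjusted p = 0.000400, with 12% of genes passing). All 6 of its passes against matched controls were higher. Dexamethasone, sulindac and cyclosporin A at 350 mg/kg were compared with the same 19 controls. Of the other 15 measured entry genes, 1 call was made, of the store-operated channel gene Orai3 after sulindac (0.82, adjusted p = 0.000134). In the whole entry list, Cacna1c included, 3 of 1520 tests were called, or 0.197%, against 0.702% over all genes.

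In the glucocorticoid hearts other calcium genes were called beside Cacna1c. Ryr3 and Adcy6 were higher after both steroids, and Jph2 was lower after dexamethasone. Jph2 ran from 10.41 to 10.96 (median 10.73) in 6 dexamethasone rats against 10.53 to 11.70 (median 11.47) in 19 controls. Ryr3, the ryanodine receptor that is scarce in heart muscle, ran from 6.23 to 7.99 (median 7.23) in 6 dexamethasone rats against 4.75 to 6.79 (median 5.42) in 19 controls. The change was 1.56 (SE 0.24, adjusted p = 1.24e-05). After fluocinolone acetonide it ran from 6.12 to 7.55 against 4.30 to 6.12, with the lowest treated and highest control rat both at 6.12 (change 1.62, SE 0.24, adjusted p = 6.87e-05). Cyclosporin A at 350 mg/kg gave the one further call of Ryr3 (1.06, adjusted p = 0.00206). Adcy6, an adenylyl cyclase that feeds the adrenergic signal to the calcium proteins, was called in the same 2 steroid profiles (0.60 and 0.77, adjusted p = 5.82e-05 and 2.46e-06). By adjusted p alone Ryr2 passed higher after dexamethasone (0.20, SE 0.05, adjusted p = 0.00294, with 14.3% of genes passing), fluocinolone acetonide (0.24, SE 0.06, adjusted p = 0.00519, with 11.4%) and fludrocortisone acetate (0.14, SE 0.03, adjusted p = 0.00571, with 7.65%).

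Cell type markers moved widely in these 2 profiles. Of 15 fibroblast and matrix genes 10 were called lower after dexamethasone and 9 after fluocinolone acetonide, and the list median ran from 8.84 to 9.54 against 10.79 to 11.50 in controls, and from 8.26 to 10.03 against 10.71 to 11.60. Of 10 macrophage genes 7 and 6 were called higher. Of 9 endothelial genes 2 were called lower in each profile, with 1 called higher after fluocinolone acetonide, and of 9 lymphocyte genes 2 were called lower in each. Heart muscle markers had median changes of 0.03 and 0.04, with 1 of 22 called higher and none. Of 6 atrial genes 1 was called higher after dexamethasone, where the list median ran from 8.60 to 12.78 against 7.12 to 9.73 in controls, and none after fluocinolone acetonide. With Myl4 and Myl7 as a covariate the Cacna1c changes were 0.78 and 0.65. Array correlation with the mean of all arrays shifted by -0.00917 and -0.0111. The part of the marker shifts in the Cacna1c result was not tested.

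Slc8a1, the exchanger, passed in 5 profiles, always lower, and was called in none. Besides epirubicin these were chlorobenzene at -0.38 (SE 0.05, adjusted p = 7.79e-07), tacrolimus at -0.36 (SE 0.06, adjusted p = 5.18e-05), terfenadine at -0.31 (SE 0.05, adjusted p = 0.000432) and rapamycin at 60 mg/kg at -0.29 (SE 0.06, adjusted p = 0.00408, with 1.39% of genes passing). In single rats the level was 10.56, 10.71 and 10.72 at 3 d and 10.77, 10.96 and 11.02 at 5 d after tacrolimus, against 11.02 to 11.32 in 18 controls, of which only the lowest reached the highest treated rat. After chlorobenzene it was 10.32, 10.54 and 10.57 at 1 d, 10.80, 11.06 and 11.09 at 3 d, and 10.59, 10.86 and 10.90 at 5 d, against 10.92 to 11.32 in 27 controls. After epirubicin it was 10.54, 10.61 and 10.98 at 1 d, 10.66, 10.96 and 11.02 at 3 d, and 10.38, 10.44 and 10.60 at 5 d, with 6 of 9 rats below all 22 controls. The second Slc8a1 probe set, at a mean level of 5.70, is far dimmer and followed the first only weakly over arrays (r = 0.13). It gave -0.28 (adjusted p = 0.137) after tacrolimus, -0.07 (adjusted p = 0.715) after chlorobenzene and -0.23 (adjusted p = 0.150) after epirubicin, so these passes rest on 1 probe set. The largest change of Slc8a1 was 0.46 (SE 0.11, adjusted p = 0.147) after cobalt (II) chloride, from 3 rats at 10.87, 10.94 and 11.03 against 3 controls at 10.32, 10.53 and 10.62, the lowest control condition of all for this gene. In the extrusion list Fxyd1 after epirubicin was the only call in 760 tests, or 0.132%, against 0.702% over all genes.

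Atp2a2 and Pln, the pump and its brake, had the smallest SDs of change among the 6 members. None of the 6 genes of the wider uptake list was called in any of 95 profiles, against 0.702% of tests over all genes. Of its 570 tests 2 passed, or 0.351%, against 1.93% over all genes. That list was not steady as a whole. Sln, which encodes the pump inhibitor sarcolipin and is known mainly from the atria, had changes from -4.59 to 2.28 without a call. The largest Atp2a2 change, -0.25 after atenolol at 1000 mg/kg (SE 0.13, adjusted p = 0.118), came from 1 rat at 12.40. The other 7 atenolol rats stood between 14.01 and 14.12, within or just under the 14.04 to 14.21 of 20 controls. The array of that rat was among those that stood apart, and all 6 members were low in it. The largest Pln change was 0.26 after loratadine at 2000 mg/kg (SE 0.12, adjusted p = 0.454), where 5 rats ran from 13.86 to 13.95 and 6 controls from 13.46 to 13.89. The 1 pass of Pln, after epirubicin, set 9 rats between 13.72 and 14.01 (median 13.89) against 22 controls between 13.62 and 13.84 (median 13.75), with 8 of the 9 above every control. Its second probe set gave 0.17 (adjusted p = 0.000780). Both genes lie near the top of the scale, and whether brightness limits their changes was not tested.

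Among 24 measured regulators 22 of 2280 tests were called, or 0.965%, against 0.702% over all genes. Rcan1, an inhibitor of calcineurin whose own transcript is a known read-out of calcineurin activity, took 12 of them, 10 lower and 2 higher. The lower calls lay between -1.64 (valsartan at 1000 mg/kg) and -0.74 (terfenadine), and cyclosporin A, a calcineurin inhibitor, gave -0.91 at 350 mg/kg and -0.90 at 300 mg/kg. Whether the lower calls followed calcineurin activity was not tested. The higher calls followed mitoxantrone (0.71) and bezafibrate (0.64). Camk2a, a calcium-calmodulin kinase gene, was called higher in 3 profiles (0.61 to 0.76), and Adcy6 in 2. The others called, once each, were Akap6, Akap7, Calm2, Pde4d and S100a1. Isoprenaline at 2 mg/kg accounted for Akap6 (-0.74) and S100a1 (-0.74), as well as for Hrc. No gene of the mitochondrial calcium list was called, in 855 tests, against 0.702% over all genes. Of those tests 8 passed, or 0.936%, against 1.93% over all genes.

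Passes of any member fell in 15 of the 95 profiles, and more than 1 member passed in several of these. Epirubicin held 4 of the 6 members and dexamethasone 3, while doxorubicin, sulindac, tacrolimus, terfenadine, chlorobenzene and fluocinolone acetonide held 2 each. Casq2 and Slc8a1 both passed lower after epirubicin, tacrolimus, terfenadine and chlorobenzene. The tacrolimus and terfenadine profiles had the same 18 controls, and these were also 18 of the 27 chlorobenzene controls, so the results of the 3 are not independent. Valdecoxib and rapamycin were compared with the same 18 rats. In these 3 CMC profiles 4, 1 and 5 of 10 macrophage markers were called higher and 3, 4 and 4 of 5 red blood cell markers lower, for tacrolimus, terfenadine and chlorobenzene in that order. By adjusted p alone 9.2%, 6.46% and 12.6% of all genes passed in them, and the share called is not given. The median change of the heart muscle markers was 0.01, -0.01 and 0.02.

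**Figure D4:**
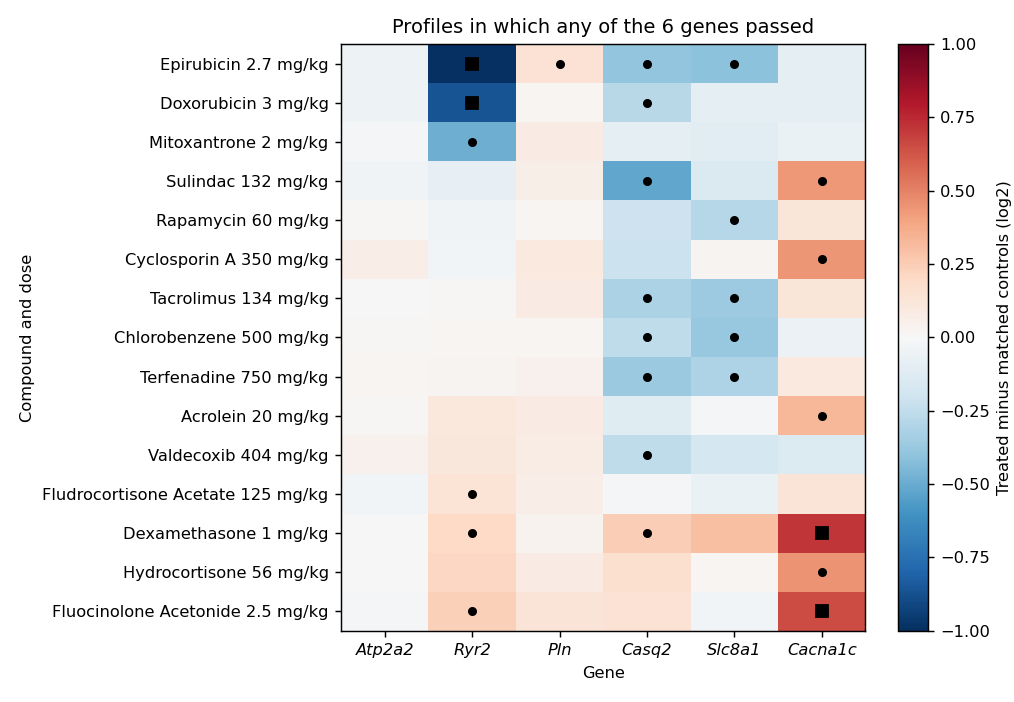
Change of each gene (treated minus matched controls, log2, as colour) in the 15 profiles where 1 or more passed, ordered by the change of Ryr2. Dots mark an adjusted p of 0.01 or less and squares also a change of at least 1.5-fold, which only Ryr2 after epirubicin and doxorubicin and Cacna1c after dexamethasone and fluocinolone acetonide show.

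Against matched controls, none of the 6 genes passed after isoprenaline, dobutamine, norepinephrine, digitoxin, flunarizine or amiodarone. These were picked by hand as compounds that act on the heartbeat or on calcium entry. The choice is not complete and leaves out the anthracyclines above. The share of all genes that passed in these profiles is not given, so the absence cannot be read as particular to the 6 genes. Some groups were small, with 5 treated and 4 control rats for isoprenaline at 4.2 mg/kg, and 3 and 8 for digitoxin. For isoprenaline, a beta-adrenergic agonist given from a mini-pump, the Cacna1c change was -0.44 at 2 mg/kg (SE 0.11, adjusted p = 0.0145) and -0.56 at 4.2 mg/kg (SE 0.21, adjusted p = 0.154). The Ryr2 change was -0.21 (SE 0.07, adjusted p = 0.0488) and -0.15 (SE 0.10, adjusted p = 0.402). With controls of every extraction campaign in place of matched ones, Cacna1c after isoprenaline at 4.2 mg/kg was called lower (-0.64, adjusted p = 0.00646). Dobutamine at 15 mg/kg gave -0.14 for Ryr2 (SE 0.04, adjusted p = 0.104), and norepinephrine at 1.75 mg/kg 0.23 for Slc8a1 (SE 0.09, adjusted p = 0.258). Digitoxin at 2.75 mg/kg, which inhibits the sodium pump, gave -0.21 for Slc8a1 (SE 0.12, adjusted p = 1.00). Flunarizine, a calcium channel blocker, gave 0.23 for Cacna1c at 126 mg/kg (SE 0.10, adjusted p = 0.792). Amiodarone at 147 mg/kg gave 0.20 for Cacna1c (SE 0.06, adjusted p = 0.0695).

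Harvest fell in the early afternoon for rats dosed for 0.25 or 1 d and in the early morning after 3 or 5 d, so duration and time of day cannot be told apart in treated rats. In control rats the 6 genes showed no call between 55 afternoon and 114 morning rats, with differences (afternoon minus morning) between -0.04 for Slc8a1 (SE 0.03, adjusted p = 0.501) and 0.01 for Atp2a2 (SE 0.01, adjusted p = 0.498). Over all genes 0.0914% were called and 2.46% passed, and none of the 6 reached an unadjusted p under 0.05 by limma. Besides Ryr2 after the 2 anthracyclines, 1 member changed differently between durations, Slc8a1 after chlorpropamide at 269 mg/kg (adjusted p = 0.00991). The treated minus control mean was 0.17 at 1 d, -0.29 at 3 d and -0.31 at 5 d. All 1 d rats of this profile, treated and control, belonged to extraction campaign 1 and all 3 and 5 d rats to campaign 3, so the step from 1 d to later times and the campaign cannot be told apart. In the chlorpropamide profile 820 genes showed such a difference, and controls of that set held a heart with a liver marker median of 10.30. The epirubicin and doxorubicin rats and their controls all belonged to campaign 1.

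Over the 840 rats, after subtraction of each campaign's mean, the levels of all 15 pairs of the 6 genes correlated positively. Pearson's r ran from 0.31 (Slc8a1 and Cacna1c) to 0.79 (Atp2a2 and Pln), and each r had the smallest p that 100000 two-sided permutations can give (1e-05, Benjamini-Hochberg adjusted over 15 pairs 1e-05). Spearman's rho ran from 0.03 (Pln and Slc8a1, p = 0.439, adjusted p = 0.439) to 0.48 (Casq2 and Slc8a1, p = 1e-05, adjusted p = 1e-05). Rats that share a vehicle, a study or a treatment are not independent. Without the 2 rats farthest from the median of the first gene, r for Atp2a2 and Pln was 0.69, and without the 32 rats whose arrays stood apart it was 0.56. The corresponding values for Casq2 and Slc8a1 were 0.65, 0.60 and 0.57. Within the 5 campaigns, of 27 to 555 rats, r for Atp2a2 and Pln ran from 0.31 to 0.93 and for Casq2 and Slc8a1 from -0.18 to 0.86. In the largest campaign Pln and Casq2 had r of 0.000627 and Pln and Slc8a1 -0.15. The size of r thus differed between campaigns. For Atp2a2 and Pln it also depended on the 32 rats that stood apart, and less so for Casq2 and Slc8a1.

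**Figure D5:**
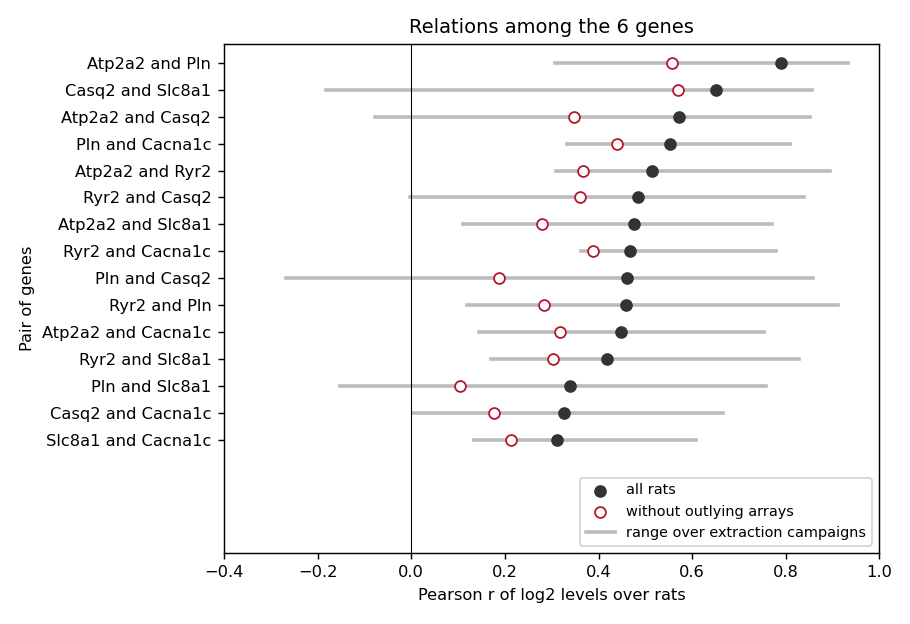
Pearson r between the log2 levels of each pair of genes over rats, after subtraction of campaign means, for all 840 rats (filled) and for the 808 without outlying arrays (open), with the range over the 5 extraction campaigns as a line. Atp2a2 and Pln drop from 0.79 to 0.56, and several lines cross or reach 0.

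The 3 genes whose level followed each member most closely over the 840 rats are given as a description, with Pearson's r after subtraction of campaign means. For Atp2a2 they were the mitochondrial phosphate carrier gene Slc25a3 (r = 0.89), the ATP synthase subunit gene Atp5f1b (r = 0.89) and the myoglobin gene Mb (r = 0.85). For Pln they were Cox6c, Cox4i1 and Atp5f1a (r = 0.85, 0.85 and 0.84), which encode subunits of cytochrome oxidase and ATP synthase. Ryr2 was followed most closely by the titin gene Ttn (r = 0.67), Ndrg2 (r = 0.63) and the glucose transporter gene Slc2a4 (r = 0.63). Casq2 was followed by the melusin gene Itgb1bp2 (r = 0.76), Atp5f1d (r = 0.75) and Tp53inp2 (r = 0.73). Slc8a1 was followed by Selenot, Pkia and Srl (r = 0.69, 0.68 and 0.66), the last encoding sarcalumenin of the calcium store. Cacna1c was followed by Tacc2, Tasp1 and Ndufs6 (r = 0.69, 0.65 and 0.64). Without the hearts that stood apart r for the first of each was 0.72 for Slc25a3, 0.71 for Cox6c, 0.59 for Ttn, 0.71 for Itgb1bp2, 0.60 for Selenot and 0.64 for Tacc2.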

How the data were processed

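The authors deposited log2 values of 31099 probe sets on 862 arrays (robust multi-array average, RMA), from poly A RNA of whole hearts; they are relative intensities with no counts, and the number of arrays limits their precision. The values were used as deposited. Of the probe sets, 20826 carried 1 gene symbol in the platform annotation and gave 14217 genes, each read from its probe set with the highest mean. For 22 rats with 2 arrays the earlier extraction campaign was kept. Campaigns were separated by gaps of at least 30 d between extractions. Each profile was fitted with limma 3.58.1 (lmFit and eBayes, R 4.3.3), with a term for each combination of duration and campaign and a term for treatment, and p values were adjusted by Benjamini-Hochberg over all genes. Calls needed an adjusted p of 0.01 or less and 1.5-fold. Intervals are 95%. Rats were taken as replicates. The fit was tested on simulated data. Promoter windows came from RefSeq (GRCr8). The text names the 6 members, and genes of the fixed calcium lists that were called. The members and lists were chosen with earlier results of these data known. Left out were 12 vehicle rats with conflicting labels and 19 treated rats without matched controls. The alternatives tried are given with their effects in the closing section.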

Additional observations from a re-analysis of the deposited data

Results flagged for a closer look

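Of 24 tests, each of 1 gene in 1 group of 4 to 10 control rats, 2 found a rat far from the rest. Chance gives about 1 in 20. The Ryr2 level of 1 intravenous saline control at 1 d was 12.16, with the nearest of the other 5 at 12.80. The Pln level of 1 CMC gavage control at 1 d was 13.70, with the nearest of the other 8 at 13.78. The change of Ryr2 differed between durations after epirubicin (limma, adjusted p = 1.41e-06) and doxorubicin (adjusted p = 0.000664), and that of Slc8a1 after chlorpropamide (adjusted p = 0.00991), where duration and extraction campaign cannot be told apart.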

How the results depend on the processing

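The 4 calls were made again with the upper 60% of genes, new quantile normalization, hybridisation batch or (in 78 profiles) study as a random block, the methods' t-test, removal of outlying arrays, and Myl4 and Myl7 as a covariate (4 calls each). Controls of every campaign gave 6 calls, among them the same 4. The others were Cacna1c lower after isoprenaline at 4.2 mg/kg (-0.64, adjusted p = 0.00646) and higher after loratadine at 2000 mg/kg (0.62, adjusted p = 0.00146). The second probe set gave 3 calls. Controls of the same study, available for 35 profiles, gave 1, and no fold minimum gave 26. The call of Cacna1c after fluocinolone acetonide was lost with the second probe set (0.33, adjusted p = 0.0777), and that of Ryr2 after epirubicin with controls of the same study (-0.25, adjusted p = 0.754), where 5 d had no control; the causes were not tested. With 1 rat left out in turn the changes ran from -1.07 to -0.88 (Ryr2, epirubicin), -0.94 to -0.80 (Ryr2, doxorubicin), 0.69 to 0.77 (Cacna1c, dexamethasone) and 0.61 to 0.68 (Cacna1c, fluocinolone acetonide), with no call lost. Of the 3 differences by duration, that of Slc8a1 after chlorpropamide was lost under new quantile normalization (adjusted p = 0.689). Harvest time gave 0 calls of the 6 genes by limma under each alternative. Correlations stayed positive for 15 pairs without outlying arrays or the 2 farthest rats, and for 14, 11, 15, 14 and 15 pairs within campaigns 1 to 5; these settings were chosen after seeing the data. No paired analysis was possible because the labels give no replicate numbers that tie treated to control rats.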
